A study of Mus musculus with 9 samples.

Results

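MicroRNA (miRNA) genes make up 296 of the 19938 named genes measured in this study of mouse mammary epithelial cells. They were taken as all genes whose single symbol is Mir followed by digits, or Mirlet7, leaving out 4 host transcripts whose symbols end in hg. The brightest row was kept where a gene had several rows, which was the case for 1 of the 296 genes. Another 61 rows that name a miRNA gene beside other symbols were not used. The values are fluorescence intensities of Affymetrix whole-transcript arrays, given here as log2(intensity + 1).

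All cells came from mammary glands of wild-type female C3H mice aged 8 to 9 weeks. The 3 groups of 3 arrays were untrypsinized cells, freed from the fat with collagenase alone; trypsinized cells, which had collagenase and then trypsin; and mock sorted cells, which had both enzymes and then a mock passage through a fluorescence-activated cell sorter. Collagenase was thus common to every group, and no group was free of enzyme. Arrays within a group are named biological replicates, with no word on which or how many animals each one held. The p-values therefore cover only the spread between these arrays, and some of that spread may be technical. The submitters compared trypsinized with untrypsinized and mock sorted with trypsinized cells. The comparison of mock sorted with untrypsinized cells, which spans both steps, was added here, and it shares its untrypsinized arrays with the first comparison and its mock sorted arrays with the second.

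A miRNA is cut from a long primary transcript. In the nucleus Drosha and Dgcr8 release a hairpin, Xpo5 exports it, Dicer1 trims it to a short duplex, and an Argonaute protein keeps one strand, whose seed pairs with messenger RNAs that are then repressed. Several miRNAs often lie in one primary transcript, and many lie inside the intron of a host gene. In the mammary epithelium the miR-200 family is known for holding the epithelial state by repressing Zeb1 and Zeb2, let-7 for opposing progenitor growth, and miR-17-92 for driving proliferation. Total RNA was labelled by a kit made for long transcripts, and the arrays do not separate primary transcript, hairpin and mature miRNA, so each value is the signal of a gene's row and not a mature miRNA level.

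Of the 296 genes, 270 had a mature sequence in the RefSeq table for GRCm38.p6. The sequences below are those of the genes with the most stable differences and of their nearest relatives, written from the 5′ end with the seed, bases 2 to 8, in capitals. The first 3 lie in one cluster on the plus strand of chromosome 8, from chr8:84208563-84208583 for miR-23a-3p to chr8:84208875-84208896 for miR-24-3p, and differ in seed:
Mir23a, miR-23a-3p: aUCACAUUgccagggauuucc
Mir27a, miR-27a-3p: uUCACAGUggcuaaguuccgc
Mir24-2, miR-24-3p: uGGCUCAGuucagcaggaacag
The miR-17-92 cluster on the plus strand of chromosome 14 and its copy on the minus strand of chromosome X hold 2 genes for one mature sequence, miR-19b-3p, at chr14:115044358-115044380 and chrX:52741991-52742013. Mir17 and Mir20a share a seed, as do Mir19a and both Mir19b genes:
Mir17, miR-17-5p: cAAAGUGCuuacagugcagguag
Mir20a, miR-20a-5p: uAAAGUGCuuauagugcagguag
Mir18, miR-18a-5p: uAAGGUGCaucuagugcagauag
Mir19a, miR-19a-3p: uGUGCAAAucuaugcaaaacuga
Mir19b-1 and Mir19b-2, miR-19b-3p: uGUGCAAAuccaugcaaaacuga
Of the measured let-7 genes, 9 had a mature sequence here, and these 9 share 1 seed. Mirlet7a-2 was measured but is not among them. Mirlet7d, Mirlet7f-1 and Mirlet7a-1 are neighbours on the minus strand of chromosome 13, and Mirlet7f-2 and Mir98 are neighbours on the plus strand of chromosome X:
Mirlet7d, let-7d-5p: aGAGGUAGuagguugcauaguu
Mirlet7f-1 and Mirlet7f-2, let-7f-5p: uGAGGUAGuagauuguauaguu
Mirlet7a-1, let-7a-5p: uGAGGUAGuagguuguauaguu
Mir98, miR-98-5p: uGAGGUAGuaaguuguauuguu
The miR-200 family has 2 seeds, split over a pair of genes on chromosome 4 and a pair on chromosome 6, all on the minus strand:
Mir200b, miR-200b-3p: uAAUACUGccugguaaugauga
Mir200c, miR-200c-3p: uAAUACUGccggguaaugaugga
Mir200a, miR-200a-3p: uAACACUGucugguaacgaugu
Mir141, miR-141-3p: uAACACUGucugguaaagaugg

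Most miRNA genes were dim. No detection calls were used, so the 95th percentile of the mean signal of 1196 olfactory and vomeronasal receptor genes, which have little known use in mammary tissue, served as a bound of 8.13. By this bound 80 miRNA genes were bright and 216 were near background. The mean signal ran from 1.13 to 11.03 with a median of 7.05. Mir677, at 8.11, lay just under the bound and Mir194-1, at 8.155, just over it. Signals of different genes come from different probes and are not compared as amounts. Over the 258 genes with a hairpin in the sequence table, the mean signal correlated with the hairpin's GC content (Pearson's r 0.777 across genes, which are not independent), and median GC was 56.6% in 65 bright genes against 45.2% in 193 dim ones. The change after trypsin had little relation to GC (r 0.15 over the same genes).

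Median intensity per array was 345 to 408 over the 35512 rows. The median signal of the 296 genes was 6.85 on untrypsinized replicate 1, below 6.97 and 7.01 on the other untrypsinized arrays, and 7.09 to 7.20 on the trypsinized and mock sorted arrays. Summed signal of luminal markers (11 of 12 listed genes measured) was 16.36 to 16.40 on untrypsinized, 16.45 to 16.46 on trypsinized and 16.50 to 16.51 on mock sorted arrays. Summed endothelial markers (8 of 8) were 14.45 to 14.66, 14.08 to 14.09 and 12.85 to 13.14, and summed leukocyte markers (7 of 8) were 12.53 to 12.64, 12.91 to 13.97 and 12.68 to 13.81. All these luminal, endothelial and leukocyte markers were bright, and their part in the miRNA gene differences was not tested. In these bulk samples, fewer cells of a type and less RNA per cell cannot be told apart.

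After trypsin, signal of the miR-23a/27a/24-2 cluster rose most among the bright miRNA genes, and genes of the let-7, miR-17-92 and miR-200 groups rose with it. In all, 15 miRNA genes were higher in trypsinized than in untrypsinized cells and 1 was lower, at a Benjamini-Hochberg adjusted p of at most 0.05 over all genes (limma) and a change of at least 1.5-fold. Among all 19938 genes, 0.532% were called higher and 0.933% lower by that rule. Of the 15, 5 were bright (Mir27a, Mir23a, Mir24-2, Mirlet7d and Mir26a-1) and 10 near background. Without the fold minimum, 53 miRNA genes were higher and 4 lower, against 13.9% and 11.5% of all genes.

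The whole class lay a little higher as well. The median log2 change over all 296 genes was 0.16, against 0.04 over all genes, and 230 of them (77.7%) had a higher mean in trypsinized cells, against 58.9% of all genes. The arrays of the groups did not overlap, with trypsinized higher, for 90 miRNA genes, where 25% of all genes did so. Bright miRNA genes had a median change of 0.22 and dim ones 0.13; genes of any kind under the bound had 0.08, and the receptor genes 0.11. The 54 small nucleolar RNA genes, another class of short noncoding RNA, had a median change of 0.25 with 10 called higher. This class-wide shift depends on the scaling between arrays: setting all arrays to a common median moved the median of all genes to -0.09 and that of the miRNA genes to 0.03, and quantile normalization gave -0.05 and -0.01. The calls were then 10 higher and 3 lower, and 8 higher and 5 lower, in place of 15 and 1. The calls of Mir27a, Mir23a, Mir24-2, Mirlet7d, Mir98, Mir200b and Mir19b-1 held under both scalings and under each of the other settings tried, of which 1, the removal of near-background genes, leaves out Mir98, Mir200b and Mir19b-1.

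**Figure D1:**
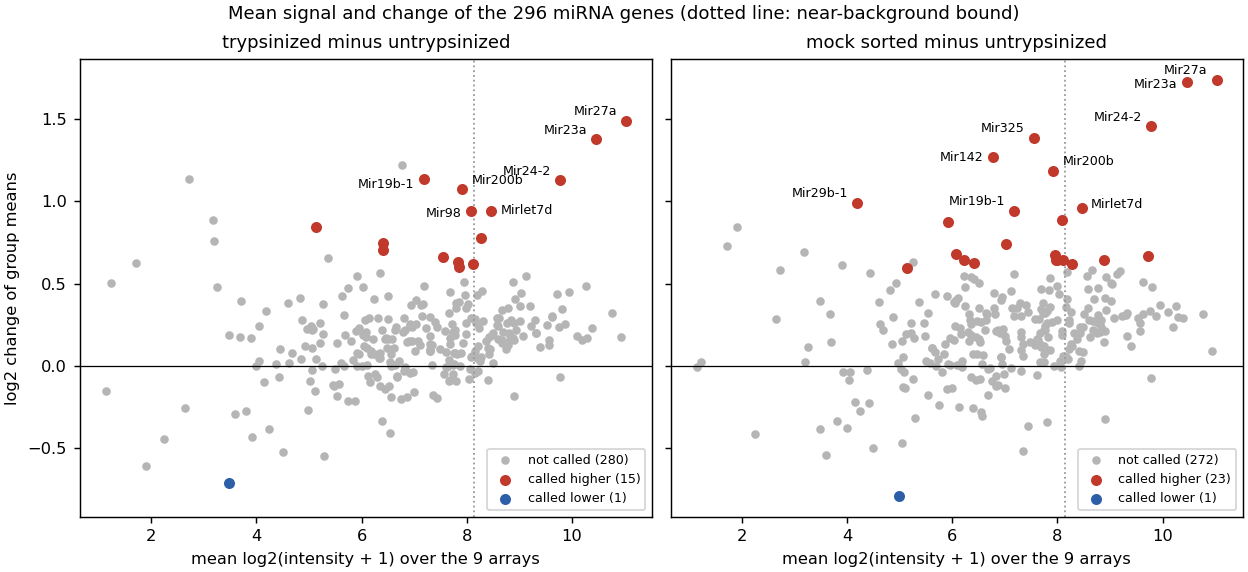
Mean log2(intensity + 1) over the 9 arrays (x axis) and log2 change of group means (y axis) of the 296 miRNA genes, for trypsinized minus untrypsinized (left) and mock sorted minus untrypsinized (right), with genes called higher in red, called lower in blue and the rest in grey. Most points lie above 0 in the deposited scaling, and Mir27a, Mir23a and Mir24-2 stand apart at the bright end; under quantile normalization the median of all points is -0.01 on the left.

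The 3 genes of the chromosome 8 cluster, whose shared primary transcript carries 3 different seeds, changed alike. Mir27a, whose mature product is known to restrain fat cell formation, read 9.65, 10.21 and 9.99 on the untrypsinized arrays, 11.32, 11.46 and 11.55 on the trypsinized and 11.68, 11.72 and 11.67 on the mock sorted arrays. Mir23a read 9.06, 9.64 and 9.57, then 10.73, 10.79 and 10.87, then 11.17, 11.24 and 11.02. Mir24-2, 1 of the genes for miR-24, a known brake on cell cycle genes, read 8.74, 8.99 and 9.00, then 10.003, 10.01 and 10.10, then 10.35, 10.40 and 10.36. For all 3 genes every trypsinized array lay above every untrypsinized array, and every mock sorted array above every trypsinized one. The log2 rise after trypsin was 1.49 ± 0.13 (SE, 2.81-fold, n = 3 and 3, limma adjusted p = 0.00039) for Mir27a, 1.38 ± 0.14 (2.60-fold, adjusted p = 0.000734) for Mir23a and 1.13 ± 0.07 (2.18-fold, adjusted p = 0.000205) for Mir24-2. Over the settings tried the change of Mir27a ran from 1.34 to 1.62. Untrypsinized replicate 1 was the lowest array for each of the 3 genes; without it the calls of all 3 remained. The further difference between mock sorted and trypsinized cells, 0.25, 0.35 and 0.33 on the log2 scale, passed neither the p nor the fold minimum for Mir27a and Mir23a, and was under 1.5-fold for Mir24-2 (adjusted p = 0.0354). From untrypsinized to mock sorted cells the rise was 1.74 for Mir27a, 1.72 for Mir23a and 1.46 for Mir24-2.

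**Figure D2:**
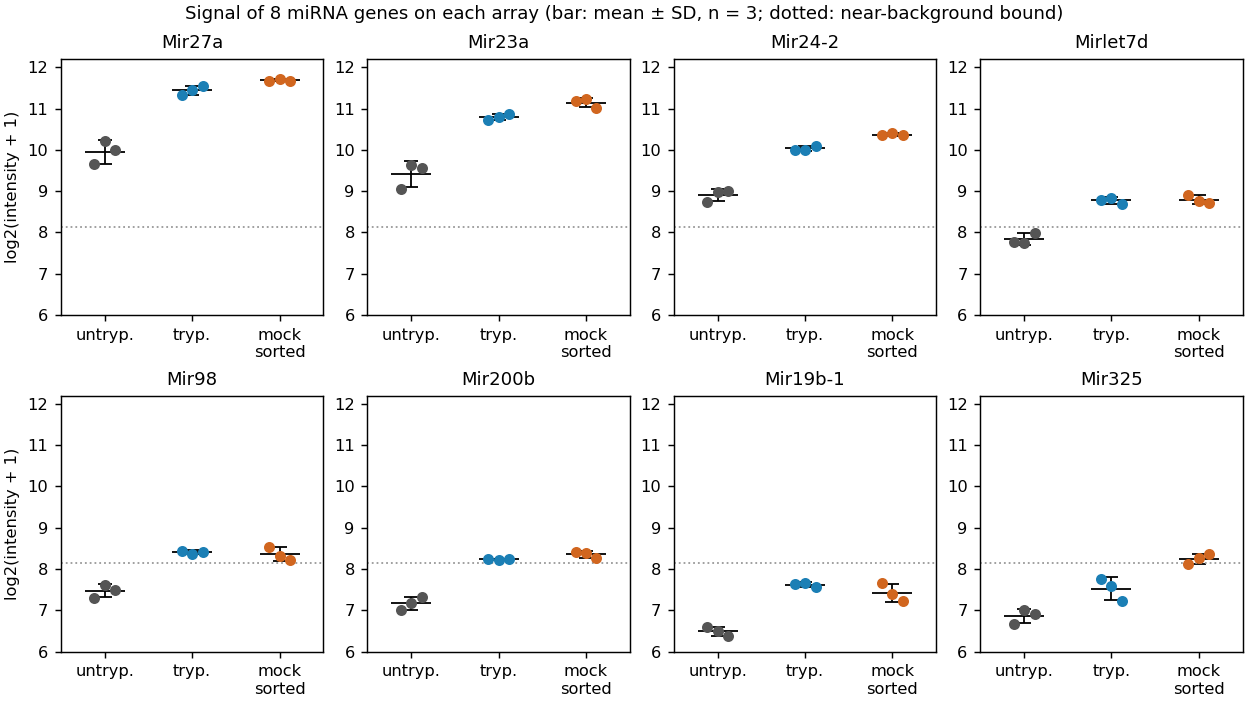
Signal on each array, as log2(intensity + 1), of the 7 miRNA genes whose calls after trypsin held under every setting that kept them and of Mir325, with 3 arrays per group as points and mean ± SD as bars; the dotted line is the near-background bound of 8.13. Trypsinized arrays lie above untrypsinized ones in all 8 panels, and only Mir325 of these 8 was called higher from trypsinized to mock sorted cells.

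In the miR-17-92 cluster, known for its activation by Myc, all 5 measured neighbours had a higher mean after trypsin, and 4 of them were called. Mir19b-1 read 6.60, 6.49 and 6.37 on the untrypsinized, 7.63, 7.67 and 7.56 on the trypsinized and 7.66, 7.40 and 7.23 on the mock sorted arrays. Trypsinized and mock sorted arrays overlapped, and both lay wholly above the untrypsinized ones. The log2 rise after trypsin was 1.13 ± 0.11 (SE, n = 3 and 3, adjusted p = 0.000528, limma) for Mir19b-1. It was 0.74 for Mir20a, 0.63 for Mir18 and 0.60 for Mir19a, all called. Mir17, the first of the cluster, had a change of 0.38 (adjusted p = 0.0199), under the fold minimum. The calls of Mir18, Mir19a and Mir20a did not hold under quantile normalization, and those of Mir18 and Mir19a did not hold with a common median either. Mir18 was also under 1.5-fold without untrypsinized or trypsinized replicate 2 (0.58 and 0.57), and Mir19a without untrypsinized replicate 1 or 3 or trypsinized replicate 2 (0.57, 0.58 and 0.54). Mir17hg, the annotated transcript that carries the cluster, changed by 0.49 (adjusted p = 0.00185), under 1.5-fold, from 7.38, 7.46 and 7.52 to 7.93, 8.05 and 7.85. Its signal and those of these 5 genes were all near background.

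Of the copy of that cluster on chromosome X, only Mir19b-2 was called, at 0.84 (adjusted p = 0.00479). It was dim, at 4.59, 4.90 and 4.48 on the untrypsinized arrays and 5.43, 5.46 and 5.61 on the trypsinized arrays. Its neighbours Mir106a, Mir20b, Mir92-2 and Mir363 had changes of 0.00, 0.31, 0.35 and 0.08. Since Mir19b-1 and Mir19b-2 encode the same mature sequence, a row designed for one could take up RNA of the other, and the change of Mir19b-2 is uncertain for that reason. Over the 13 measured genes of the miR-17-92 group and its copies, 5 were called higher and 0 lower after trypsin. By that rule 5.07% of all miRNA genes and 0.532% of all genes were called higher. The median change of the 13 was 0.38, against 0.16 over all miRNA genes and 0.04 over all genes. At the adjusted p alone 8 of the 13 were higher, against 17.9% of all miRNA genes and 13.9% of all genes.

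**Figure D3:**
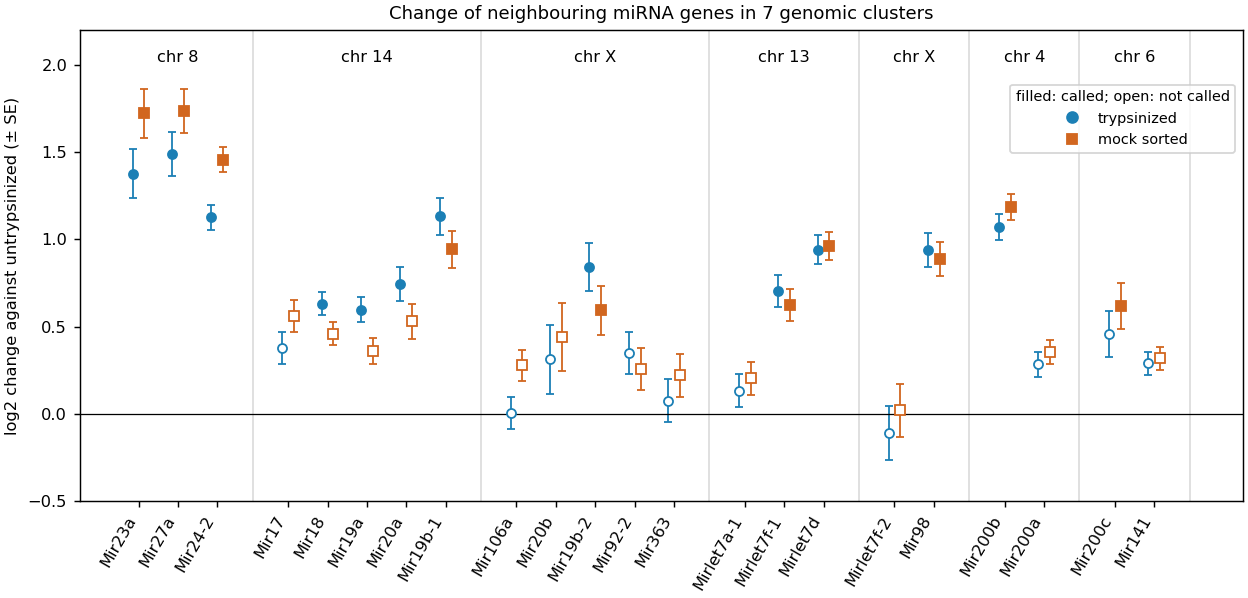
Log2 change against untrypsinized cells (± SE from limma, 3 arrays per group) of neighbouring miRNA genes in 7 clusters, with trypsinized as blue circles, mock sorted as orange squares and filled symbols for calls. The chromosome 8 genes change alike, from 1.13 to 1.49 after trypsin. In the chromosome 13 let-7 cluster 2 of 3 genes are called after trypsin. In the chromosome X let-7 pair and the chromosome 4 pair 1 gene is called. The gene not called in each of these lies between -0.11 and 0.28 after trypsin.

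Neighbouring let-7 genes gave unlike values. Mirlet7d read 7.77, 7.74 and 8.00 on the untrypsinized, 8.79, 8.84 and 8.69 on the trypsinized and 8.91, 8.77 and 8.72 on the mock sorted arrays, with no untrypsinized array reaching the others. Its log2 rise after trypsin was 0.94 ± 0.08 (SE, adjusted p = 0.000392, limma) and to mock sorted cells 0.96. Mirlet7f-1, its neighbour on chromosome 13, rose by 0.71 (adjusted p = 0.00203), while the next neighbour, Mirlet7a-1, had a change of 0.13 with overlapping groups. On chromosome X, Mir98 rose by 0.94 ± 0.10 (adjusted p = 0.000807), from 7.30, 7.61 and 7.50 to 8.45, 8.36 and 8.42. Mirlet7f-2 beside it, which encodes the same mature let-7f as Mirlet7f-1, read 5.85, 5.57 and 5.39 and then 5.27, 5.41 and 5.80, a change of -0.11 with overlapping groups. Thus 2 loci for 1 mature sequence gave 0.71 and -0.11, and the call of Mirlet7f-1 was lost with a common median (0.57) and with quantile normalization (0.49), under 1.5-fold in both; no test of the difference between rows was made. Mirlet7e, the brightest of the family's other genes, had 0.44 (adjusted p = 0.0125), under 1.5-fold. Of the 10 measured genes on the let-7 list, 3 were called higher and 0 lower. By that rule 5.07% of all miRNA genes and 0.532% of all genes were called higher. The median change of the list was 0.33, against 0.16 over all miRNA genes.

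Among the miR-200 genes, Mir200b rose. It read 7.01, 7.18 and 7.31 on the untrypsinized, 8.25, 8.22 and 8.25 on the trypsinized and 8.41, 8.39 and 8.26 on the mock sorted arrays. The 3 groups did not overlap, and the log2 rise after trypsin was 1.07 ± 0.08 (SE, 2.10-fold, adjusted p = 0.000259, limma). Its neighbour Mir200a had 0.28 (adjusted p = 0.023), and on chromosome 6 Mir200c had 0.46 (adjusted p = 0.0359) and Mir141 had 0.29 (adjusted p = 0.0157), all under the fold minimum. All 4 measured members were thus higher at the adjusted p alone, against 17.9% of all miRNA genes and 13.9% of all genes. Of the 4, 1 was called, where 5.07% of all miRNA genes and 0.532% of all genes were called higher. From untrypsinized to mock sorted cells Mir200c also passed, at 0.62 (adjusted p = 0.00718), from 7.65, 8.10 and 8.02 to 8.42, 8.78 and 8.44. That call of Mir200c was lost without untrypsinized replicate 1 (0.48), without mock sorted replicate 2 (0.50), and with a common median (0.47) or quantile normalization (0.44), each time for want of 1.5-fold. On the list of other epithelial miRNAs, 2 of 8 were bright and 0 of 8 were called in any of the 3 comparisons. With 0.532% of all genes called higher after trypsin and 1.08% over both steps, that count is near the background.

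The other calls after trypsin were weaker. Mir26a-1, a gene for miR-26a, which is known to repress Ezh2, read 8.10, 7.84 and 7.76 on the untrypsinized arrays, 8.45, 8.55 and 9.03 on the trypsinized and 8.46, 8.31 and 7.90 on the mock sorted arrays. Its rise of 0.78 (adjusted p = 0.0199, limma) passed after trypsin, and its mock sorted arrays overlapped both groups. The call was lost without untrypsinized replicate 2 or 3 or trypsinized replicate 3, with an adjusted p of 0.0556, 0.0575 and 0.0547, with the replicate block over 6 arrays (0.0717) and with quantile normalization (0.0553). Mir677 rose by 0.62 (adjusted p = 0.000604) and lies inside Atp5b, a gene of the mitochondrial ATP synthase; its change was under 1.5-fold without untrypsinized replicate 1 (0.58) and in both scalings. Mir325, on chromosome X, rose by 0.66 after trypsin (adjusted p = 0.0133). That call was lost without untrypsinized replicate 1 (0.56) or trypsinized replicate 1 (0.54), in both scalings (0.53 and 0.49), and with the replicate block over 6 arrays (adjusted p = 0.075). Mir463, on chromosome X, was the 1 gene lower after trypsin, by -0.71 (adjusted p = 0.0453). It read 4.31, 3.31 and 3.89 before and 3.05, 3.10 and 3.24 after, far under the bound. Its call was lost in 16 of the settings, among them leaving out any array but untrypsinized replicate 2, where the adjusted p ran up to 0.118.

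Among the genes with the strongest signal, most calls lay in the chromosome 8 cluster. Of the 20 miRNA genes with the highest mean signal, 3 were called after trypsin, all of them in the chromosome 8 cluster, and 4 over both steps, with Mir680-3 as the fourth. Over all genes 0.532% were called higher after trypsin and 1.08% over both steps. The scarcity of calls outside the cluster is therefore near the background. Mir212, a gene induced by the CREB factor in neurons, read 10.58, 10.48 and 10.59 on the untrypsinized, 10.96, 10.83 and 10.82 on the trypsinized and 10.95, 10.86 and 10.80 on the mock sorted arrays. Its trypsinized arrays lay above the untrypsinized ones without overlap, yet the change of 0.32 (adjusted p = 0.00646, limma) was under 1.5-fold. Mir194-2 had 0.49 (adjusted p = 0.00242), also under 1.5-fold. Mir210, the classic miRNA of the hypoxia response, read 9.51, 9.73 and 9.83, then 9.96, 9.90 and 9.97, a change of 0.25 (adjusted p = 0.0503). Mir692-1 had 0.18 and Mir568 -0.07, neither past the adjusted p. On the list of p53 and stress miRNAs, which holds Mir212, 0 of 7 measured genes were called in any comparison, and their median change after trypsin was 0.20. A count of 0 among 7 is likewise near the background of all genes.

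Calls were rare over all genes (0.532% higher and 0.933% lower after trypsin, 1.08% and 3.4% over both steps), so a count of 0 in a family of this size is near that background. The 6 measured miR-181 genes, which act in lymphocyte development, had 0 calls in any comparison and a median change of 0.15 after trypsin and 0.19 over both steps. The 6 genes with the seed of miR-15 and miR-16, known to restrain Bcl2 and cyclins, had 0 calls and medians of 0.18 and 0.26. The 5 genes with the miR-30 seed had 0 calls and medians of 0.27 and 0.23. For the 9 let-7 genes with a mature sequence here, the calls were 3 after trypsin and 3 over both steps, with medians of 0.37 and 0.45. These medians stand beside 0.16 and 0.22 over all miRNA genes, and no family was tested against the others.

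Between mock sorted and trypsinized cells 1 of the 296 was called higher and 0 lower, where 0.0251% of all genes were higher and 1.17% lower. By the adjusted p alone 3 were higher and 1 lower, against 0.466% and 4.2% of all genes, and limma's p before adjustment was below 0.05 for 27 higher and 6 lower. The arrays of the 2 groups did not overlap, with mock sorted higher, for 33 miRNA genes, against 9.74% of all genes. The median change was 0.06, against 0.00 over all genes and 0.06 over the receptor genes. A higher mean in mock sorted cells was found for 67.2% of the miRNA genes and 65.4% of the receptor genes. This small shift of the class was thus shared with the receptor genes. The 1 gene called, Mir325, read 6.66, 7.001 and 6.92 on the untrypsinized arrays, 7.76, 7.59 and 7.22 on the trypsinized and 8.11, 8.27 and 8.35 on the mock sorted arrays. The 3 groups did not overlap. Its change from trypsinized to mock sorted cells was 0.72 ± 0.14 (SE, adjusted p = 0.0267), and with the replicate number as a block the adjusted p was 0.06 over 9 arrays and 0.11 over the 6 arrays compared. Leaving out trypsinized replicate 2 or 3 raised the adjusted p to 0.0747 and 0.053, and leaving out mock sorted replicate 2 or 3 to 0.0967 and 0.112, so that the call was lost in each case. Over both steps Mir325 rose by 1.39 ± 0.14 (2.61-fold, adjusted p = 0.000205), and this call held under every setting that kept the gene.

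Over both steps together, from untrypsinized to mock sorted cells, 23 miRNA genes were higher and 1 lower, against 1.08% and 3.4% of all genes. Of the 23, 7 were bright and 16 near background. The median change was 0.22, against 0.05 over all genes, 0.16 over the receptor genes and 0.13 over genes of any kind under the bound. Near-background miRNA genes had a median of 0.18 and bright ones 0.29. A higher mean in mock sorted cells was found for 81.4% of the miRNA genes and 81.2% of the receptor genes. Much of the shift was thus shared with the receptor genes. By the adjusted p alone 97 were higher and 6 lower, against 21% and 18% of all genes. The groups did not overlap, with mock sorted higher, for 115 miRNA genes, against 28.7% of all genes. With a common median the calls were 12 higher and 3 lower, with a median of 0.07 for the miRNA genes and -0.09 for all genes. With quantile normalization they were 9 higher and 9 lower. Of the 27 miRNA genes called higher in this comparison or after trypsin alone, 11 were called in both, 12 here alone and 4 after trypsin alone, without a test of the difference between the comparisons. The calls of Mir325 and of the 7 genes named above for trypsin held under every setting that kept them.

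The 12 genes called over both steps alone are Mir142, Mir200c and the 10 that follow. Mir29a and Mir29b-1, neighbours on chromosome 6 whose products are known to repress collagen genes, rose by 0.64 and 0.99. Mir186, inside Zranb2, rose by 0.88, from 5.54, 5.22 and 5.58 to 6.48, 6.15 and 6.34. Mir491, inside Focad, rose by 0.74, and Mir505, a bright gene on chromosome X, by 0.64, from 8.43, 8.58 and 8.47 to 9.10, 9.22 and 9.08. Mir449c, of the family that acts in multiciliated cells, rose by 0.65. Of the 3 loci of miR-680, Mir680-1 and Mir680-3 were called at 0.67 each, and Mir680-2 had 0.56, under the fold minimum. Mir709 and Mir669c rose by 0.64 and 0.68. None of these 10 calls held under both scalings, and 5 of them also depended on single arrays. Mir29a lost its call without untrypsinized replicate 3 (0.57) or mock sorted replicate 1 (0.48), Mir680-1 without mock sorted replicate 1 (0.55), and Mir680-3 and Mir449c without untrypsinized replicate 1 (0.50 for each). Mir669c lost it without untrypsinized replicate 1 or 3 or mock sorted replicate 3 (adjusted p 0.0622, 0.0536 and 0.0651, limma). The gene called lower, Mir299a, read 5.18, 5.45 and 5.39 on the untrypsinized and 4.48, 4.55 and 4.62 on the mock sorted arrays, a change of -0.79 ± 0.10 (adjusted p = 0.000462).

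Mir142, a gene expressed in blood cells, was high on the same arrays as a T cell and a B cell transcript. It read 5.74, 5.998 and 6.08 on the untrypsinized, 7.97, 6.68 and 6.83 on the trypsinized and 8.00, 6.97 and 6.65 on the mock sorted arrays. Replicate 1 of both treated groups was more than 1 log2 unit above the other arrays of its group. Cd3e, a T cell receptor subunit, was high on the same 2 arrays. It read 11.45 and 11.42 there, against 9.93 to 10.23 on the other treated arrays. The B cell gene Cd79a read 10.61 and 10.25, against 8.71 to 9.48. Leukocyte markers did not all change alike. Over both steps the changes of the 7 measured ran from -0.42 for Csf1r (adjusted p = 0.0335, limma) to 1.57, with 3 called higher and 0 lower. The rise of Mir142 to mock sorted cells, 1.27 ± 0.41 (SE, adjusted p = 0.0386, limma), lost its call without mock sorted replicate 1 (0.87, adjusted p = 0.0914). It also lost it without mock sorted replicate 2 (adjusted p = 0.0646) or any 1 of the untrypsinized arrays (0.0664 to 0.107), with quantile normalization (0.0851) and with the replicate block over 6 arrays (0.0507). With replicate 1 of both treated groups left out together the change was again 0.87 and the call was kept (adjusted p = 0.00465). After trypsin alone the change was 1.22 (adjusted p = 0.0601). The part of blood cells in this difference was not tested. On the list of blood miRNAs, 1 of 10 measured genes was called over both steps, Mir142 itself, and 0 of 10 in either single step. Of all genes, 1.08% were called higher over both steps, 0.532% after trypsin and 0.0251% between mock sorted and trypsinized cells. A count of 0 among 10 is near that background, and the count of 1 rests on Mir142 alone.

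The median summed signal of endothelial, mural, adipocyte, Schwann cell, basal, fibroblast and muscle markers was lowest on the mock sorted arrays. That of luminal and leukocyte markers was not. For fibroblast and muscle markers, mock sorted and trypsinized arrays overlapped. From untrypsinized to mock sorted cells the median summed signal was 14.55 and 12.998 for endothelial, 13.58 and 12.38 for mural, 13.35 and 12.11 for adipocyte and 12.81 and 11.95 for Schwann cell markers. It was 15.76 and 15.61 for basal, 14.84 and 14.59 for fibroblast and 12.36 and 12.15 for muscle markers. Of 6 adipocyte markers, 2 near background, Fabp4 and Car3 were called lower over both steps, at -1.40 and -2.19. The median change of that list was -0.11 and its highest 0.19. The Schwann sum held 4 of 6 listed genes, 2 of them near background. Of these 4, 3 were called lower, and the highest change was 0.19. Of the miRNA lists, in the mural and stromal list (10 measured), the muscle list (7), the adipocyte list (8) and the neural list (10), 0 genes were called in any comparison, which with 1.08% of all genes called higher and 3.4% lower over both steps is near the background for lists of this size. These lists held 1, 0, 1 and 3 bright genes, and a fall of a gene already near background may not be measurable. Mir126a, the measured gene of the endothelial pair and picked for that reason after its values were seen, read 5.73, 5.67 and 5.89 on the untrypsinized and 5.82, 5.87 and 5.48 on the mock sorted arrays, near background throughout. Its host Egfl7, an endothelial gene, fell by 1.20 on the log2 scale (adjusted p = 7.43e-05) between the same arrays.

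Host genes and their miRNA genes were set side by side in 91 pairs, where the miRNA gene lies within a measured gene on the same strand in the RefSeq table. Over both steps 6 of the 72 hosts were called lower, where 3.4% of all genes were. They were Igf2, Pde2a, Egfl7, Mest, Gpc3 and Hoxd4, at -1.78, -1.41, -1.20, -1.06, -0.69 and -0.65 on the log2 scale. Their miRNA genes Mir483, Mir139, Mir126a, Mir335, Mir717 and Mir10b, named because their hosts were called, had changes of 0.00, 0.29, -0.04, 0.01, -0.01 and -0.09, none of them called. With 1.08% of all genes called higher and 3.4% lower, 0 of 6 is near the background. Mir10b also lies within Hoxd3, which changed by -0.02 and was not called. Mir483 and Mir139 were bright. Mir139 read 9.90, 10.16 and 10.36 on the untrypsinized and 10.32, 10.49 and 10.49 on the mock sorted arrays, with overlapping groups, while Pde2a, a cyclic nucleotide phosphodiesterase, went from 10.92, 11.09 and 11.14 to 9.80, 9.55 and 9.59. In 5 pairs the miRNA gene rose and the host was not called; for Mir98 the host Huwe1, a ubiquitin ligase, had 0.39 (adjusted p = 0.00124). Across the 91 pairs the changes over both steps correlated at r = 0.25, a description over pairs that share arrays and, in part, hosts.

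**Figure D4:**
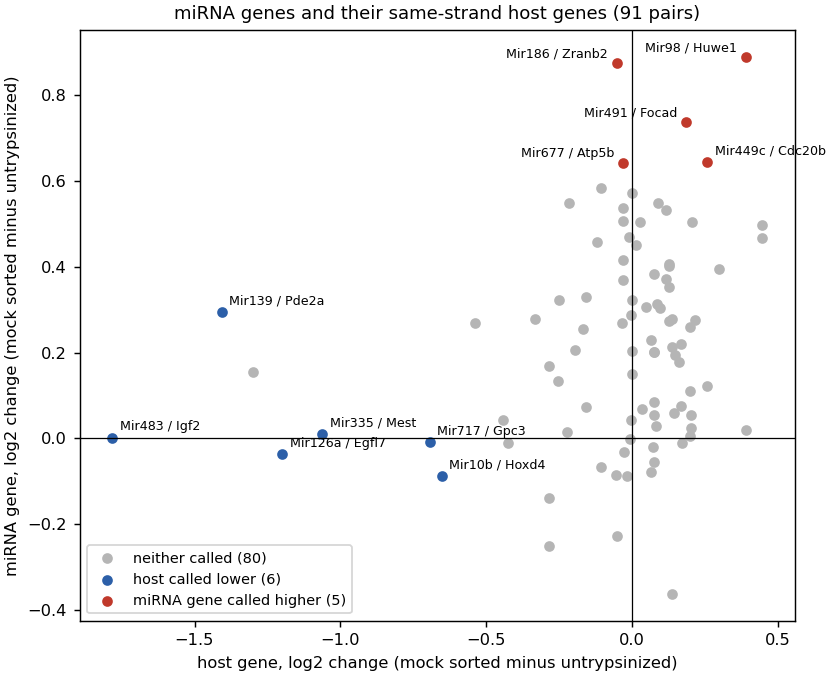
Log2 change from untrypsinized to mock sorted cells in 91 pairs of a host gene (x axis) and a miRNA gene within it (y axis), from 3 arrays per group; the pairs hold 72 hosts, some of them in several pairs. The 6 hosts called lower, in blue, lie between -0.65 and -1.78 while their miRNA genes lie between -0.09 and 0.29, and the 5 miRNA genes called higher, in red, have hosts between -0.05 and 0.39.

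The large miRNA region of chromosome 12 between Dlk1 and Dio3, which is imprinted and transcribed from the maternal copy, had 40 measured genes, of which 9 were bright. After trypsin 0 were called in either direction and the median change was -0.05, with 24 of the 40 lower in mean, while 58.9% of all genes were higher in mean; with 0.532% of all genes called higher, a count of 0 among 40 is near the background. Over both steps 0 were called higher and 1 lower, Mir299a, with a median of 0.01. Meg3, the noncoding RNA at the start of that transcription unit, had a change of -0.31 over both steps (adjusted p = 0.0213, limma), under the fold minimum. The values of the region against those of all other miRNA genes were not put to a test.

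Genes that make and use miRNAs were also measured. Of 29 measured genes on the lists of Microprocessor, export and dicing, Argonaute complex and turnover factors, 0 were called in any of the 3 comparisons. By the same rule 1.46% of all genes were called after trypsin, 1.19% between mock sorted and trypsinized cells and 4.47% over both steps. A count of 0 among 29 is near that background. At the adjusted p alone, 7 were higher and 0 lower after trypsin, 0 differed between mock sorted and trypsinized cells, and 7 were higher and 3 lower over both steps. The shares of all genes were 13.9% higher and 11.5% lower after trypsin, and 21% and 18% over both steps. Drosha, the nuclear cutting enzyme, read 10.71, 10.70 and 10.68 on the untrypsinized and 10.58, 10.67 and 10.68 on the trypsinized arrays, and Dicer1 had a change of 0.12 (adjusted p = 0.0947, limma). Among the 7, Tnrc6b and Tnrc6a, scaffolds that link Argonaute to RNA decay, had 0.28 and 0.25, Ago2, the slicing Argonaute, 0.27, and Tarbp2, a partner of Dicer1, 0.22. Lin28b, which blocks let-7 maturation and was near background here, had 0.30 (adjusted p = 0.0195). Over both steps Dgcr8 and Ago1 were among the 3 lower genes, at -0.18 each.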

How the data were processed

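The authors deposited an intensity for each row and array, not on a log scale. How background, probe summary and scaling were handled is not given in the sources used here. Of tools, limma is named in the submitters' processing notes. RNA was total RNA labelled with biotin, per the labels' protocols. Of 35512 rows, 21789 had 1 gene symbol in the platform annotation (updated by gene number with RefSeq), 1621 had several and 12102 are unnamed here; the brightest row per gene gave 19938 genes. Values were taken as log2(intensity + 1), which understates changes of dim genes, and fitted over all 9 arrays with limma 3.58.1 in R 4.3.3, with Benjamini-Hochberg adjustment over all genes. Called means adjusted p of at most 0.05 and at least 1.5-fold, the fold and p of the submitters' design. In data simulated for trypsin, the fit recovered 88% of genes changed 1.6-fold and 96% of those changed 2.0-fold. At 1.6-fold it recovered 74% for mock sorted against trypsinized cells and 82% over both steps. The simulated noise was independent between arrays, without shifts of whole arrays or pairing. Changed genes were drawn from all genes, so recovery among dim miRNA genes was not measured. The number of arrays limits the precision. Neighbours are miRNA genes within 10 kb on the same strand in RefSeq GRCm38.p6. Replicate numbers were checked for pairing by correlating deviations from group means. For equal numbers r was 0.53, 0.29 and 0.29 between trypsinized and mock sorted arrays. It was 0.32, 0.18 and 0.06 between untrypsinized and mock sorted arrays, and 0.11, 0.04 and -0.04 between untrypsinized and trypsinized arrays. Trypsinized and mock sorted arrays were taken as paired from these values and not from a label. The main fit held no replicate term, and the replicate block was tried as an alternative. Named genes are called genes whose groups do not overlap, the 20 brightest, listed genes that are bright or called, their neighbours and hosts, and the processing genes with the smallest p. The miRNA genes, lists and rules were chosen with earlier results of these data known. Alternatives covered scaling, pseudocount, dim genes, rows, variance model, replicate block and each array left out.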

Additional observations from a re-analysis of the deposited data

How the results depend on the processing

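Of the 41 calls of single miRNA genes, 15 held under all settings that kept the gene and 0 reversed. With no minimum fold, 53 miRNA genes were higher and 4 lower after trypsin, 3 and 1 between mock sorted and trypsinized cells, and 97 and 6 over both steps, with 7 and 10 processing genes after trypsin and over both steps. Quantile normalization gave 8 higher, 5 lower and a median of -0.0121 after trypsin, 1 lower between mock sorted and trypsinized cells, and 9 higher, 9 lower and a median of -0.0003 over both steps, so both medians reversed; the cause was not tested. A common median gave 3 lower and a median of 0.0308 after trypsin, and 12 higher, 3 lower and 0.0704 over both steps. Bright genes alone, which are fewer genes, gave 5 higher, 0 lower and a median of 0.22 after trypsin, 0 higher between mock sorted and trypsinized cells, and 7 higher, 0 lower and 0.29 over both steps. The 1 gene lower after trypsin became 0 with a pseudocount of 16, every row, a robust trend, array weights, the 6 arrays alone and the replicate block over 9 or 6 arrays; the pseudocount also left 0 lower over both steps. The 1 gene higher between mock sorted and trypsinized cells became 0 with every row and with the replicate block over 9 arrays, 3 at an unadjusted p and 2 with array weights. Genes lower over both steps were 2 with array weights and 2 without both replicate-1 arrays of the treated groups, a setting chosen after seeing the data. Leaving out 1 array gave 0 to 2 lower after trypsin, 0 to 2 higher and 0 to 2 lower between mock sorted and trypsinized cells, and 1 to 3 lower over both steps. The replicate block over 6 arrays lost 3 calls after trypsin, 1 between mock sorted and trypsinized cells and 2 over both steps; with 13, 1 and 24 genes then higher, other genes were gained in the last 2 comparisons. A bound at the 75th percentile of the receptor genes left 141 bright genes and at the 99th 39, in place of 80. Dim signal limits what can be seen in 216 of the 296 genes, and the unstated scaling limits any statement on the class as a whole.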
